A study of Mus musculus and synthetic RNA with 74 samples.

Results

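The trophectoderm is the outer epithelium of the blastocyst, which pumps fluid into the blastocoel, attaches the embryo to the uterus and gives rise to the placenta. This account follows 9 genes known for this lineage, chosen by name as the rows listed under their symbols in the gene tables of both stages: *Cdx2*, *Eomes*, *Gata3*, *Elf5*, *Tfap2c*, *Hand1*, *Id2*, *Krt8* and *Krt18*. All 9 were listed among the 20330 genes of the E2.5 table and the 21199 genes of the E3.5 table, or 21890 genes in either.

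The embryos came from intercrosses of heterozygous mice that carry a cassette of stop codons in exon 3 of *Mettl16*, which encodes an RNA m6A methyltransferase, on 1 copy of the gene. They were collected as morulae (E2.5, that is 2.5 days of gestation) and as blastocysts (E3.5, a day later), sequenced singly by a poly(A)-primed full-length method (Smart-seq2), and typed from reads of the wild-type and inserted alleles. At E2.5 there were 5 wild-type (WT), 14 heterozygous (HET) and 12 knockout (KO) embryos, and at E3.5 there were 18 WT, 9 HET and 12 KO embryos, from mothers that were superovulated and heterozygous. The alleles are those of 1 mutant line, founded on B6D2F1/J and crossed with C57BL/6JRj, and no agent distinguished the groups.

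The tables used here hold 1 measurement per gene and stage, the mean normalised count over all 31 or all 39 embryos with their genotypes pooled, and no value per embryo. The embryos of a stage therefore have no spread here, no difference below has a replicate check or a p-value, and genotypes were not compared. WT embryos made up 16.1% of the E2.5 mean and 46.2% of the E3.5 mean, and each stage was normalised by itself, so that stage, genotype makeup and processing cannot be told apart in any ratio between stages. As these are whole embryos, a larger share of cells of a type and more RNA per cell cannot be told apart either. *Mettl16* itself had a pooled mean of 778 at E2.5 and 669 at E3.5, which does not check the genotype labels.

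The means summed to 23557112 at E2.5 and 27145016 at E3.5, and levels are given below as the mean normalised count per 1000000 of this sum (CPM). Genes are compared with each other only after division by the length of their exons (CPM per kb). A ratio between stages is log2 of E3.5 over E2.5 after 0.1 CPM was added to both, and a gene is called higher or lower past 2-fold. The 14155 genes whose mean reached 10 at either stage had a median log2 ratio of 0.40, and other scalings and pseudocounts moved this median between 0.23 and 0.60. Reads also lay further toward the 3′ ends at E3.5. Over 5582 genes with enough reads, the last exon gained on the first by a median of 1.5 on the log2 scale between E2.5 and E3.5, and 93.8% of these genes moved that way.

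Of the 9 trophectoderm genes, 7 were at least 2-fold higher in blastocysts than in morulae, against 34.2% of all genes past the filter, and 2, *Tfap2c* and *Hand1*, were at least 2-fold lower, against 19.0%. Their median log2 ratio was 4.52, beside 0.40 for all genes. All 9 passed the filter on low values, but *Elf5* passed it only through E3.5 and so had to be higher there. Of the 8 that passed it at both stages 6 were higher and 2 lower. Of all 11774 genes that did so, 3599 were higher and 1910 lower. Summed, the 9 genes took 468 CPM of the morula mean and 3602 CPM of the blastocyst mean, that is 0.0468% and 0.360%. The keratins *Krt8* and *Krt18* made up 18% of this sum at E2.5 and 67.5% at E3.5.

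**Figure D1:**
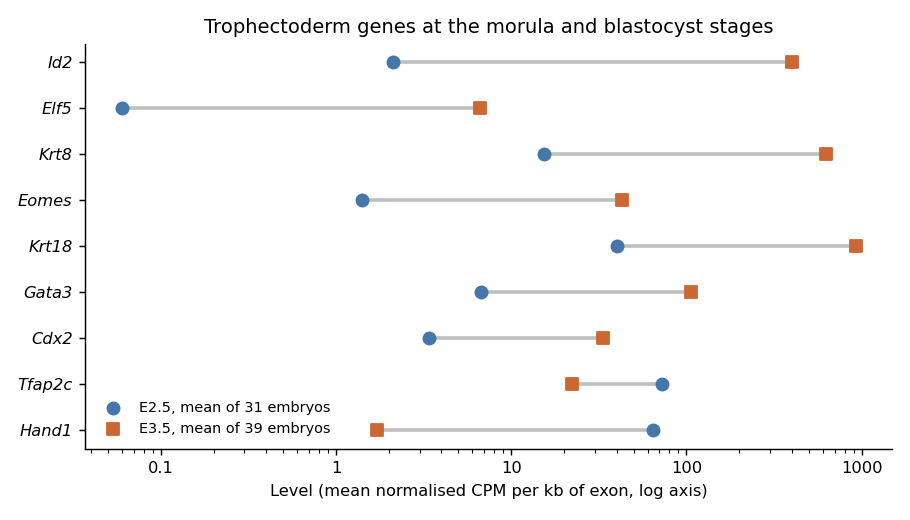
Levels of the 9 trophectoderm genes at E2.5 (circles, mean of 31 embryos) and E3.5 (squares, mean of 39 embryos) as mean normalised CPM per kb of exon, on a log axis, with genes ordered by the ratio between stages. The squares lie to the right of the circles for 7 genes and to the left for *Tfap2c* and *Hand1*, and no error bars are drawn because the deposited means have no spread.

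Per kb of exon the order of the genes was different at the 2 stages. In morulae it ran from *Tfap2c* (73.0 CPM per kb) through *Hand1* (64.6), *Krt18* (40.4), *Krt8* (15.3), *Gata3* (6.75), *Cdx2* (3.39), *Id2* (2.10) and *Eomes* (1.41) to *Elf5* (0.060). In blastocysts it ran from *Krt18* (926) through *Krt8* (629), *Id2* (402), *Gata3* (106), *Eomes* (42.8), *Cdx2* (33.3), *Tfap2c* (22.2) and *Elf5* (6.61) to *Hand1* (1.71). The genes that led in morulae, *Tfap2c* and *Hand1*, stood seventh and last in blastocysts. Without a spread it cannot be said which neighbours in either order differ.

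*Cdx2* encodes the caudal-type homeobox factor that is needed for the trophectoderm to be kept apart from the inner cell mass. It lies on chr5:147300900-147307249 (mm10, minus strand) and has 3 exons. Its mean normalised count was 171 in morulae and 1940 in blastocysts, which is 7.27 and 71.5 CPM and a log2 ratio of 3.28, or 9.72-fold higher at E3.5. *Cdx2* was thus already read in morulae, where it stood at the 48.7th percentile of genes per kb, and it reached the 83.8th in blastocysts. Exon sums gave a lower morula level of 4.80 CPM in place of 7.27 and a similar ratio of 3.36.

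*Eomes* encodes a T-box factor required in trophoblast, and its 6 exons lie on chr9:118478189-118486132 (plus strand). Its mean was 124 in morulae and 4318 in blastocysts, a log2 ratio of 4.89 (29.7-fold). RefSeq places the antisense long noncoding RNA *Gm33408* over its first exon, and since these libraries did not mark strand, reads of both cannot be told apart there. In the last exon, which the antisense gene does not reach, the log2 ratio was 5.10 scaled to the last exons of all genes and 5.56 scaled to all exons.

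*Gata3* encodes a zinc finger factor that acts in parallel with *Cdx2* in the trophectoderm. It lies on chr2:9857078-9878600 (minus strand) with 6 exons. Its mean was 511 in morulae and 9266 in blastocysts, a log2 ratio of 3.97 (15.7-fold). Per kb it was above *Cdx2* and *Eomes* at both stages.

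*Tfap2c* encodes the transcription factor AP-2γ, which activates trophectoderm genes from the cleavage stages on. It lies on chr2:172549593-172558622 (plus strand) with 8 distinct exons in 2 transcripts. In contrast to the preceding genes its mean was 5278 in morulae and 1849 in blastocysts, a log2 ratio of -1.72, or 3.29-fold lower at E3.5. Relative to the median gene the ratio was -2.12. Even so it remained at the 78.8th percentile per kb in blastocysts, from the 90.7th in morulae.

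*Elf5* encodes an Ets factor that belongs to the same regulatory circuit of trophoblast stem cells as *Cdx2* and *Eomes*. It lies on chr2:103412098-103450989 (plus strand) with 8 distinct exons in 2 transcripts that differ in their first exon. Its mean was 3.18 in morulae and 403 in blastocysts, that is 0.135 and 14.9 CPM. The log2 ratio of 5.99 (63.7-fold) depends on the pseudocount, being 6.68 with 0.01 and 3.80 with 1 CPM. *Elf5* was the lowest of the 9 genes in morulae.

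The reads at E3.5 fell on the downstream of the 2 *Elf5* first exons. The upstream first exon (chr2:103412098-103412127), only 30 bases long, had a mean of 0 at E2.5 and 0.074 at E3.5. The downstream first exon (chr2:103424068-103424188) of 121 bases, 11970 bases away, had 0.274 and 15.4, which is 99.5% of the pair at E3.5. The exons are of unequal length and a 30-base exon can collect few reads. The windows around both start sites are shown because the data separate them. They run from 250 bases before to 50 bases after the start, on the plus strand, as RefSeq gives them on GRCm38.p6, the assembly also called mm10. Capitals mark matches to 6 motifs listed after the keratins.

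Elf5 upstream start, chr2:103411848-103412147: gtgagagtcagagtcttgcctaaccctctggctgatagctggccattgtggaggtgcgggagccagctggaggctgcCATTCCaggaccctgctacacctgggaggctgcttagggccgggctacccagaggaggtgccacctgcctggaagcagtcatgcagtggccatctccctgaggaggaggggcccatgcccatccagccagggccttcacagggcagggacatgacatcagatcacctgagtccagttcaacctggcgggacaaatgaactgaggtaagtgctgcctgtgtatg
Elf5 downstream start, chr2:103423818-103424117: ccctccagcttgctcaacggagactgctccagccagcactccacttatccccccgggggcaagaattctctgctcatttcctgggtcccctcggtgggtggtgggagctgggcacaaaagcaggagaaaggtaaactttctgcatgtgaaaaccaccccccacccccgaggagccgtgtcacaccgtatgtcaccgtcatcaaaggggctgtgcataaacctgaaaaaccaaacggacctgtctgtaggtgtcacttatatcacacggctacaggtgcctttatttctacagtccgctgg

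The window of the upstream start holds 3 CpG dinucleotides and has 60.7% G and C, and that of the downstream start holds 10 CpG and has 55.3%. The upstream window has the motif of TEAD factors on its minus strand, 173 bases before the start, and the window of the downstream start, which had nearly all the reads at E3.5, has none of the 6 motifs.

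*Hand1* encodes a basic helix-loop-helix factor known for its role in trophoblast giant cells after implantation. It lies on chr11:57828713-57832147 (minus strand) with 2 exons. Its mean was 2889 in morulae and 88.0 in blastocysts, a log2 ratio of -5.20, or 36.7-fold lower at E3.5. Only 50 of the 14155 genes had a lower ratio, so that *Hand1* was 51st from the bottom. Both exons were lower, with log2 ratios of -5.87 for the first and -4.55 for the last. Its level in morulae was 123 CPM from Salmon and 80.3 from exon sums, and the ratio was -5.05 by the latter. The antisense gene *Gm32915* starts within its first exon, and its reads cannot be told apart there.

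*Id2* encodes an inhibitor of basic helix-loop-helix factors that is expressed early in outer cells. It lies on chr12:25093799-25096092 (minus strand) with 3 exons. Its mean was 63.0 in morulae and 13889 in blastocysts, a log2 ratio of 7.53, or 184-fold higher at E3.5. This was the largest ratio of the 9 genes and the 20th of all 14155. The window around its start has 63.3% G and C and 21 CpG, beside a median of 52.7% and 7 over all windows. It is printed on the minus strand because the gene had the largest ratio.

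Id2, chr12:25096043-25096342: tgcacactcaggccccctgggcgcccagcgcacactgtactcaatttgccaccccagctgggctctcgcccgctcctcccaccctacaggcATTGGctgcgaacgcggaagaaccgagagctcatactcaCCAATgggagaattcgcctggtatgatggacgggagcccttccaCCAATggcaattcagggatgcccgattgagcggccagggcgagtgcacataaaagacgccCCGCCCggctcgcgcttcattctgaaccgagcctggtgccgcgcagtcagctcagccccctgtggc

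*Krt8* and *Krt18* encode the paired type II and type I keratins of simple epithelia, which assemble together into the intermediate filaments of the trophectoderm. *Krt8* lies on chr15:101996711-102004342 (minus strand, 9 exons) and *Krt18* on chr15:102028216-102032026 (plus strand, 7 exons), with 23.9 kb and 2 other RefSeq genes, *Gm36026* and *Gm41404*, between them. The mean of *Krt8* was 651 in morulae and 30837 in blastocysts, a log2 ratio of 5.36 (41.0-fold). The mean of *Krt18* was 1332 and 35173, a log2 ratio of 4.52 (22.9-fold). Per kb *Krt18* was above *Krt8* at both stages, by 2.64-fold in morulae and 1.47-fold in blastocysts. In blastocysts *Krt18* stood at the 99.0th percentile of genes per kb and *Krt8* at the 98.7th. The windows of both starts are shown because the genes encode partners, lie close together and were both higher at E3.5, *Krt8* read from the minus strand and *Krt18* from the plus strand.

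Krt8, chr15:102004293-102004592: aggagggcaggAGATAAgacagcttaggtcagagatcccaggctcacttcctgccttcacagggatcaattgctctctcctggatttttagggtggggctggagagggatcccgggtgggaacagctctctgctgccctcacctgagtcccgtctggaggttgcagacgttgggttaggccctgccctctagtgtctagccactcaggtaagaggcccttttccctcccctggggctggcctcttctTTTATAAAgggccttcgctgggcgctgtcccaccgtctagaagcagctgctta
Krt18, chr15:102027966-102028265: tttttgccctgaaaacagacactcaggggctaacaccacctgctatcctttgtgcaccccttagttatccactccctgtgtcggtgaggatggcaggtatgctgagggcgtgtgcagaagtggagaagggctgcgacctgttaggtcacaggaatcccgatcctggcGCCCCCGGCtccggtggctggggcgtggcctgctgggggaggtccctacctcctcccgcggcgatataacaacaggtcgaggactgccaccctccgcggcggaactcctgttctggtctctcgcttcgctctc

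RefSeq windows were available here for 7 of the 9 genes, 8 windows in all, and none was available for *Tfap2c* and *Hand1*. Each was searched on both strands for the short motifs of 6 kinds of factor, and the share of all 32851 gene windows that hold the same letters is given beside the count. The AP-2 motif GCCNNNGGC, which reads the same on both strands, was in the windows of *Cdx2*, *Gata3* and *Krt18*, that is 3 of 8, and in 16.6% of all. The motif of TEAD factors, GGAATG, was in 1 of 8 (*Elf5*) and in 14.7% of all windows. The motif of GATA factors, AGATAA, was in 1 of 8 (*Krt8*) and in 11.2%. *Krt8* was also the 1 gene of these with the TATA box letters, TATAAA, which 13.6% of all windows hold. These letters overlap their own match on the minus strand. They begin 1 base before the annotated start and so lie across it. The motif of SP and KLF factors, GGGCGG, was in 2 of 8 (*Gata3* and *Id2*) and in 35.7%. The NF-Y motif, CCAAT, was in 3 of 8 (*Cdx2*, *Eomes* and *Id2*) and in 37.4%. These matches describe the letters and do not show that a factor binds.

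The paper states that METTL16 methylates structured RNAs that hold the sequence TACAGAGAA (with U for T in RNA). Only these letters were searched here, and not the structure around them. Spliced from the exons of the deposited tables, none of the 12 transcripts of the 9 genes contained it, whereas 832 of 24466 genes (3.40%) did, with 5 copies in *Mat2a*, the known METTL16 target looked up as a check of the search. The nearest match was 8 of the 9 letters at 1 site in *Krt8*.

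The stage ratios were next followed exon by exon, on counts that the authors made with featureCounts and that are scaled here to the sum over all exons. In 8 of the 9 genes the reads could be compared at both ends, and in all 8 the last exon had a higher stage ratio than the first, by a median of 1.53 on the log2 scale, against 1.5 for all 5582 genes. The trophectoderm genes thus shared the shift that 93.8% of genes showed. Among the 8 the largest gain was in *Gata3*, with a log2 ratio of 1.45 in exon 1 and 5.04 in exon 6, a gain of 3.31 when no pseudocount is added, which is at the 95th percentile of genes. Its last exon held 31.7% of its exon counts in morulae and 65.0% in blastocysts. *Eomes* ran from 2.25 to 5.56. *Id2* differed least, with 7.45 in its first exon and 7.56 in its last. When only the last exon of each gene was used and scaled to the sum over these last exons, 7 of the 9 genes were at least 2-fold higher, against 37.5% of 11774 genes, and 2 lower, against 18.2%, with *Tfap2c* at -1.42. When the last exons were scaled to the sum over all exons, 7 were higher, against 48.7%, and only *Hand1* was lower, against 12.2%, with *Tfap2c* at -0.90. So the call of *Tfap2c* at its last exon depends on the scaling. Both alternatives were chosen after the data were seen.

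**Figure D2:**
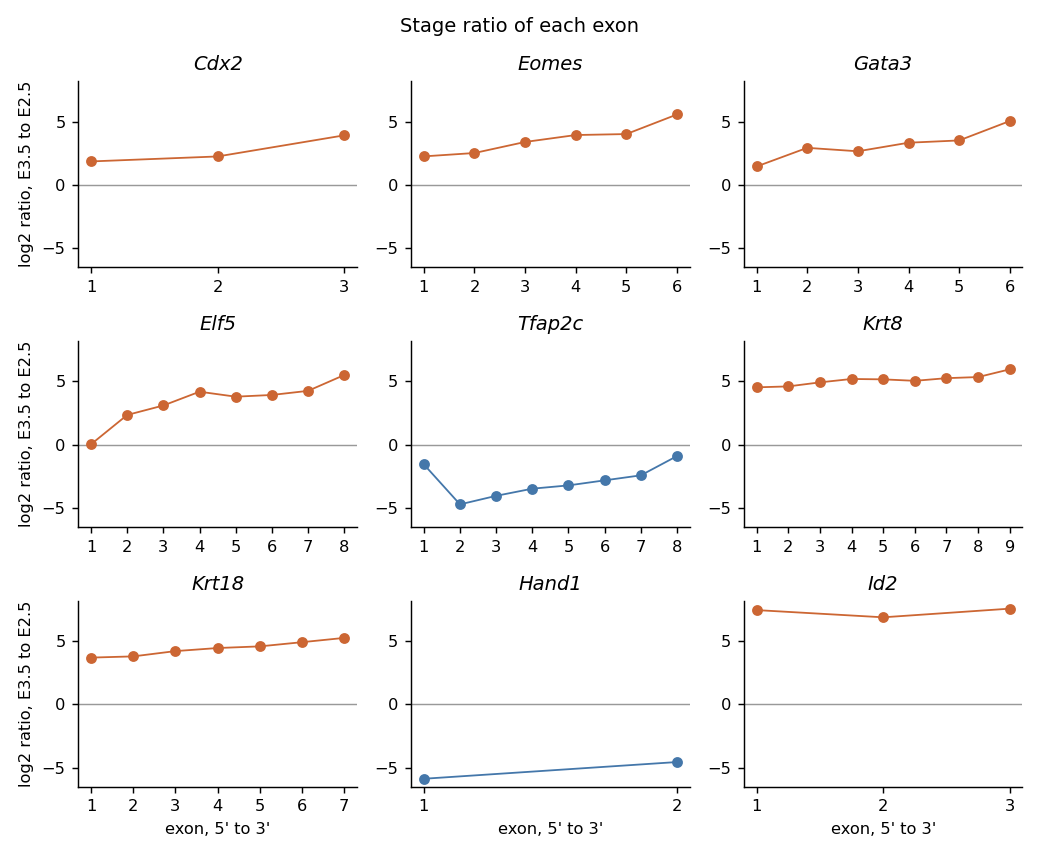
Log2 ratio of E3.5 to E2.5 for each exon (counts per 1000000 of all exon counts, pseudocount 0.1), numbered from the 5′ end, in 1 panel per gene and with the same vertical axis. Every exon of *Tfap2c* and *Hand1* lies below 0 and every exon of the other 7 genes above it. The low value of *Elf5* exon 1 comes from counts of 0 and 0.074.

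Along *Tfap2c* the decrease was uneven. The last exon went from a mean count of 2557 to 1153, a log2 ratio of -0.90 on the scale of all exons, short of 2-fold, while exon 3, the first that both transcripts share, went from 1475 to 72.3, a log2 ratio of -4.04. The 2 alternative first exons also differed. The upstream one (chr2:172549593-172549882, 290 bases) had mean counts of 70.1 and 17.9, a log2 ratio of -1.55 on the scale of all exons. The downstream one (chr2:172550991-172551221, 231 bases), 1398 bases away, had 514 and 13.1, a log2 ratio of -4.71 on the same scale. The downstream exon therefore held 88.0% of the counts on the pair in morulae and 42.4% in blastocysts. Over 448 genes with a pair of first exons and enough reads, the median absolute change was 2.69 percentage points. *Tfap2c* changed by -45.6 points, and 6 genes (1.34%), *Tfap2c* itself counted among them, moved at least that far in either direction. The counts behind the blastocyst share are low, and their error over embryos is unknown.

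**Figure D3:**
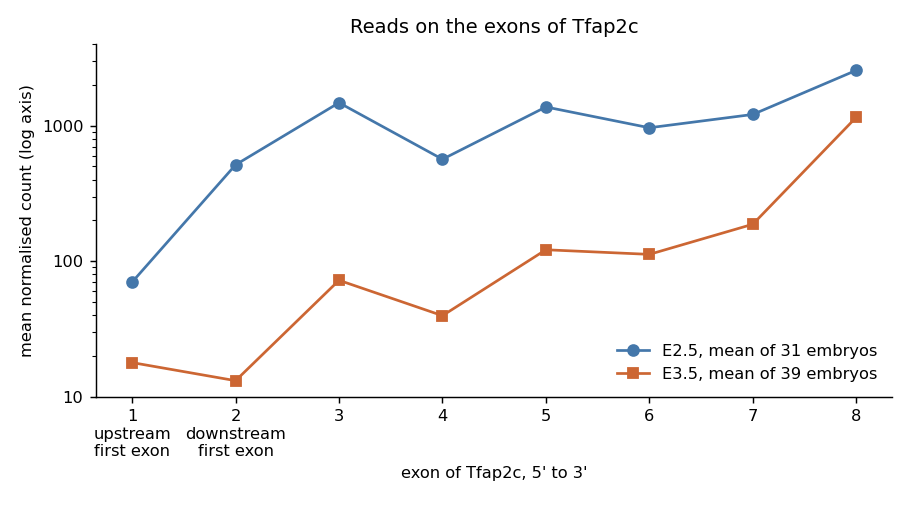
Mean normalised count on each of the 8 exons of *Tfap2c*, from the 5′ to the 3′ end, at E2.5 (circles) and E3.5 (squares) on a log axis, with exons 1 and 2 being the alternative first exons. The stages lie closest at exon 8 (2557 and 1153) and furthest apart at exon 2 (514 and 13.1).

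Intron reads, which can come from unspliced transcripts, were summed per gene and divided by length, and are given as a percentage of the reads per kb of the same gene's exons. Introns that overlap an exon of any gene were left out, so 5 of 6 were used for *Eomes* and 6 of 7 for *Elf5* and *Tfap2c*. Among 7328 genes whose means reached 100 at both stages the median was 0.67% at E2.5 and 1.24% at E3.5. The 9 trophectoderm genes had a median of 0.52% and 1.08%, of which 6 are among the 7328. *Id2* had 2.63% in morulae and 7.47% in blastocysts, the highest of the 9 in blastocysts, and its first intron went from a mean count of 0.340 to 322. *Eomes* had 6.19% and 4.75%, and *Gata3* 1.23% and 2.73%. The keratins were low at both stages, at 0.19% and 0.15% for *Krt8* and 0.24% and 0.27% for *Krt18*. *Hand1*, whose exon counts were much lower at E3.5, had an intron count of 13.8 at E2.5 and 0.593 at E3.5. *Tfap2c* had intron counts of 31.9 and 11.3, or 0.24% and 0.43% per kb. At E2.5 the intron counts of *Cdx2*, *Elf5* and *Id2* were below 2, so their percentages there rest on few reads. The same holds for *Hand1* at E3.5, with 0.91% from a count of 0.593.

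**Figure D4:**
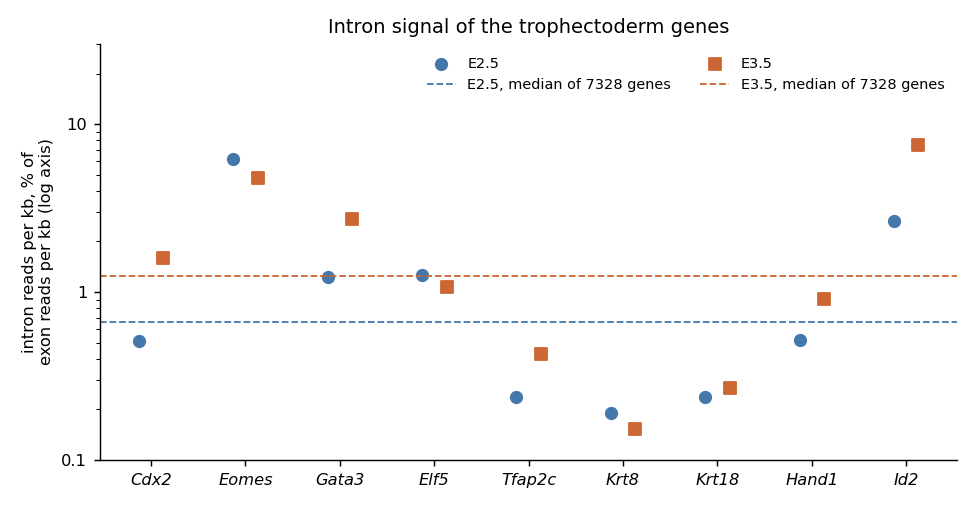
Intron reads per kb as a percentage of exon reads per kb for the 9 genes at E2.5 (circles) and E3.5 (squares) on a log axis. Dashed lines give the medians of 7328 genes, 0.67% at E2.5 and 1.24% at E3.5, and *Eomes* and *Id2* lie above both lines at both stages.

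A list of 18 further genes that act upstream of these factors or mark the trophectoderm was described in the same way. Of the 18, 9 were at least 2-fold higher in blastocysts (34.2% of all genes were), 2 were lower (19.0% of all genes) and 7 lay between, with a median log2 ratio of 1.15 beside 0.40 for all genes. *Dppa1* and *Plac1* passed the filter only through E3.5 and *Krt19* only through E2.5, so their directions were fixed by it, and among the other 15 genes 7 were higher, 1 lower and 7 between. *Tead4*, which encodes a DNA-binding factor of the Hippo pathway that acts upstream of *Cdx2*, went from 250 to 85.7 CPM, a log2 ratio of -1.54. Its coactivators *Yap1* and *Wwtr1* lay within 2-fold, at -0.04 and -0.32. The 3 largest ratios were those of *Dppa1* (0.137 to 805 CPM, log2 ratio 11.73), *Lrp2*, an endocytic receptor (14 to 1131, 6.33), and *Plac1* (0.229 to 5.30, 4.04). *Gata2*, a paralogue of *Gata3*, had 3.98. *Krt19*, a type I keratin like *Krt18*, went the other way, from 5.10 to 0.214 CPM with a log2 ratio of -4.05.

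**Figure D5:**
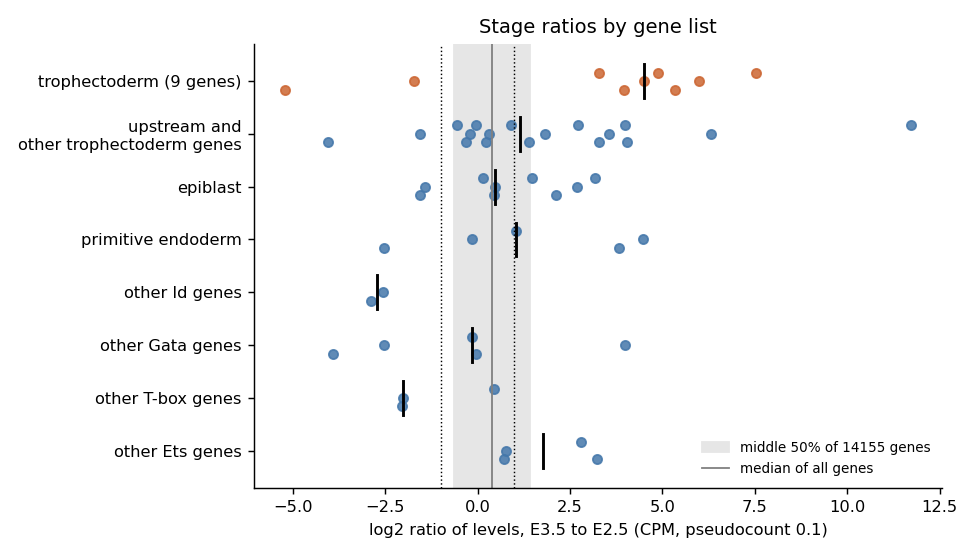
Log2 ratio of E3.5 to E2.5 (CPM, pseudocount 0.1) of the genes past the filter in 8 lists, each point a gene and each black bar the median of its list. The grey band holds the middle 50% of 14155 genes, dotted lines mark 2-fold, and 7 trophectoderm points lie right of the band and 2 left of it. *Elf5*, *Krt19*, *Dppa1*, *Plac1*, *Id1* and *Tbx6* passed the filter through 1 stage only, so it fixed their directions.

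Relatives of the 9 genes lay on either side. *Id3* (278 to 47.2 CPM, log2 ratio -2.55) and *Id1* (-2.88) were lower in blastocysts, where *Id2* was higher. *Cdx1*, another caudal-type gene, went from 0.013 to 7.74 CPM, the same direction as *Cdx2*. *Id1* passed the filter only through E2.5 and *Cdx1* only through E3.5, so the filter fixed their directions. Of 5 other Gata genes, *Gata2* (3.98) was higher, as *Gata3* was, and 34.2% of all genes were higher. *Gata1* (-3.91) and *Gata4* (-2.52) were lower, as were 19.0% of all genes, and 2 lay between. Among other T-box genes *Tbx3* was lower, from 248 to 60.4 CPM (-2.04), and *Tbx20* (0.45) lay between. *Tbx6* (-2.01) was also lower but passed the filter only through E2.5. Among other Ets genes *Elf3* (65.3 to 454, 2.79) and *Elf4* (3.23) were higher, as *Elf5* was, while *Elf1* and *Elf2* lay between. Of 10 other keratins only *Krt10* passed the filter (1.97 to 7.01 CPM, 1.78), and 4 of the 10 were at 0 or not listed in morulae. *Tfap2a* lay just within 2-fold, at 0.91, beside -1.72 for *Tfap2c*.

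Genes of the inner cell mass were counted for comparison. Of 9 epiblast genes, 4 were at least 2-fold higher at E3.5 (34.2% of all genes were), 2 lower (19.0% of all genes) and 3 between, with a median of 0.47 beside 0.40, so the list stood near all genes. *Pou5f1* went from 383 to 130 CPM (-1.56) and *Nanog* from 23.4 to 153 (2.70). Of 7 primitive endoderm genes 5 passed the filter, with a median of 1.05. *Pdgfra* (3.82), *Col4a1* (4.47) and *Sox17* (1.05) were higher (34.2% of all genes were). *Gata4* (-2.52) was lower (19.0% of all genes) and *Gata6* (-0.16) lay between. The medians of both lists were below the 4.52 of the trophectoderm genes, which includes *Elf5*, whose direction the filter fixed. This difference was not tested.

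Markers of other cells stood low. Of 7 genes of later trophoblast only *Gcm1* passed the filter, and it was lower at E3.5 (5.41 to 0.574 CPM). The list summed to 5.60 CPM in morulae and 0.788 in blastocysts, with *Prl3d1*, *Tpbpa* and *Ctsq* at 0 or not listed in morulae. The 4 cumulus cell markers listed summed to 1.25 and 4.82 CPM, nearly all of it *Star*. *Ptx3*, also on the cumulus list, was not listed at either stage. The 4 uterine epithelium markers summed to 6.34 and 3.66 CPM, but 2 of them moved in opposite directions. *Ltf* went from 5.48 to 0.0013 CPM and passed the filter only through E2.5, which fixed its direction. *Muc1* went from 0.821 to 3.60 CPM (2.01). The 3 blood markers summed to 2.13 and 0.533 CPM. Of the markers listed, none in these 3 lists was at 0 at either stage. The part of these cells in the results was not tested.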

How the data were processed

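Single mouse embryos were sequenced by Smart-seq2 with paired-end reads of non-stranded libraries. The authors estimated counts of RefSeq transcripts (mm10) with Salmon 0.7.2, summed them to genes, normalised each stage with DESeq2 1.18.1 and deposited, as the signal used here, the mean normalised count of a gene over all embryos of a stage. Alignments made with STAR were counted on exons and introns with featureCounts, and the authors deposited the mean normalised signal of each, with 10 bases removed from both ends of every intron. The remaining columns hold the authors' comparisons between genotypes (log2 fold changes and adjusted p-values). They were not used, so no genotype comparison was made. Depth per embryo is not in the tables used.

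Means were divided by their sum per stage, and a gene entered the counts with a mean of at least 10 at either stage. Genes named were the 9 trophectoderm genes, genes of fixed lists by level, and of a list with more than 5 genes past 2-fold the 3 largest ratios. The 9 genes and the lists were chosen with earlier results of these data known. The counting step was tested on simulated data. A read across a junction counts in both exons, which raises short exons. All 53 exons of the 9 genes and 97.5% of all 221202 exons matched RefSeq on GRCm38.p6. Alternatives were other scalings, pseudocounts, filters and exon sums. Python 3.11.15, numpy 2.4.6, pandas 2.3.3, pysam 0.24.0 and matplotlib 3.10.9 were used. The in vitro methylation libraries were not used here.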

Additional observations from a re-analysis of the deposited data

How the results depend on the processing

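Of 72 recomputed stage ratios of the 9 genes, 63 stayed within 1.5 times of the value reported and none changed sign. The exceptions were *Elf5* with pseudocounts of 0.01 (6.68) and 1 (3.80), and 7 of the genes at their last exon scaled to all exons. Under 8 alternatives 7 trophectoderm genes were at least 2-fold higher, and 2 were lower under 7 of them. With the last exons scaled to all exons 1 was lower (*Hand1*), and 1434 of the 11774 genes counted by their last exon were. With a filter of 100 in place of 10, 1742 genes were at least 2-fold lower at E3.5 in place of 2687, since fewer genes were counted. Of 36 recomputed CPM levels, 34 stayed within 1.5 times, the exceptions being *Cdx2* (4.80) and *Hand1* (80.3) at E2.5 by exon sums, for which the cause was not tested. The median intron in place of the sum gave 1.62% for *Gata3*, 0.61% for *Elf5* and 0.058% for *Krt8* at E3.5. No paired analysis was possible because the tables hold no value per embryo, and for the same reason the planned genotype tests and leaving out of embryos were not run. Genes of few reads, such as *Elf5* at E2.5, are limited by depth that is unknown here.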
